A study of Mus musculus with 4 samples.

Results

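A set of 8 mouse genes was examined because the binding regions of the insulator protein CTCF with the highest fold enrichment in control heart muscle cells lie beside them. They are Kdm3b, Nsfl1c, Adprhl2, Rfx7, Vps36, Pkn3, Rapgef1 and Nipsnap2, out of 21887 protein-coding genes in the gene table used. They were picked by 2 values: the fold enrichment of the region in the control list, and the presence of a region at the same place in the list labelled CTCF knockout. Their strength in the control and their presence in both lists are thus descriptions and support nothing. The regions around them were called from CTCF chromatin immunoprecipitation and sequencing (ChIP-seq). The cells were left-ventricular heart muscle cells of C57BL/6 mice, and each of the 2 libraries pooled 3 hearts. Of these, 1 library is the control and 1 is labelled CTCF knockout. The labels name neither a Cre driver nor the age of the mice. With 1 library per genotype no test between genotypes was possible, and all intervals below cover counting error only. The lists hold binding regions and no expression, so neither the cell type nor the loss of CTCF could be checked against marker genes, and the second library is called by its label throughout.

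CTCF is a zinc-finger protein that recognises a long, GC-rich sequence and stays on many of its sites across tissues. Together with the ring-shaped cohesin complex it holds the bases of chromatin loops, where the orientation of the recognition sequences matters, and it often sits near the starts of widely expressed genes. The 8 genes share no pathway. Kdm3b encodes a histone H3 lysine 9 demethylase and Rfx7 a winged-helix transcription factor. Nsfl1c encodes p47, a cofactor of the p97 ATPase in membrane fusion, and Vps36 a subunit of the ESCRT-II complex, which sorts ubiquitin-tagged membrane proteins for degradation. Pkn3 encodes a serine/threonine protein kinase, and Rapgef1 an exchange factor that switches on the small G protein Rap1. Adprhl2 (ARH3) removes ADP-ribose from proteins, and Nipsnap2 encodes a mitochondrial protein.

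The DNA under the strong regions was read where a RefSeq promoter window (250 bases before to 50 after a gene's start, GRCm38.p6, the assembly called mm10) covered the control summit. Of the 8 genes 7 were in that table, and for 5 of them the summit lay inside the window. All 5 windows held a match to the core of the CTCF recognition sequence, here the word AGAGGGC, the word AGATGGC, the word AGGGGGC or the word AGGTGGC on either strand, with CC starting 5 bases before it. The stretches around the summit and the matches are shown because they were no part of the choice of genes. They are written 5′ to 3′ along the gene in the RefSeq sequence, with each match of 12 bases in capitals. In Nipsnap2 the match is on the opposite strand, so its reverse complement is capitalised.
Nsfl1c (chr2:151494102-151494184, plus strand): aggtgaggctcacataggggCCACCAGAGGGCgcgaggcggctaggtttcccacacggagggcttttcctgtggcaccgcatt
Adprhl2 (chr4:126321728-126321814, minus strand): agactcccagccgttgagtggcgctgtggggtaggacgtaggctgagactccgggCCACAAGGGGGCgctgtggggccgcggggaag
Vps36 (chr8:22192735-22192798, plus strand): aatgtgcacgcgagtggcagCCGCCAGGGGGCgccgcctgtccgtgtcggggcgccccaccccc
Rapgef1 (chr2:29619619-29619749, plus strand): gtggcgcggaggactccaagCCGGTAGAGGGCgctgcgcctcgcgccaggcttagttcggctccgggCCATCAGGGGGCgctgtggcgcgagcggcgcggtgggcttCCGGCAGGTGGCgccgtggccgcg
Nipsnap2 (chr5:129724943-129725005, plus strand): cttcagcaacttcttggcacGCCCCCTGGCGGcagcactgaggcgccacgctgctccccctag

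The 5 promoters carried 7 matches, 3 of them in the Rapgef1 window. In Vps36 and Nipsnap2 the match was the same run of bases, CCGCCAGGGGGC, which lies along the gene in Vps36 and against it in Nipsnap2. Of all 32851 promoter windows 37 held this run, and 30 of those 37 had a control summit inside. Nsfl1c carried CCACCAGAGGGC, Adprhl2 CCACAAGGGGGC, and Rapgef1 CCGGTAGAGGGC, CCATCAGGGGGC and CCGGCAGGTGGC. Only 2 of the 32851 windows held 3 or more such matches, and the Rapgef1 window was the only one of them with a control summit. In all 7 matches the next base was G, a feature noticed in these sequences and then counted. It was G after 70.7% of the 396 matches in windows with a control summit and after 40.5% of the 726 matches in the other windows.

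Matches of this kind were scarce in promoters as a whole. They were found in 3.36% of all 32851 windows, in 2.26% of the 31600 windows without a control summit, and in 31.1% of the 1251 windows with one. Where the summit belonged to the strongest 10% of control regions, the share was 43.3% of 293 windows, and where it belonged to the weakest 10% it was 9.01% of 111. The 7-base words alone, which are short and GC-rich, occurred in 27.6% of all windows and 61.2% of those with a control summit. The median GC content was 52.7% over all windows and 61.7% over those with a summit. The 5 member windows with a summit inside had between 52.3% (Nsfl1c) and 67.3% (Nipsnap2). The 5 member windows are among the 293 windows over the strongest regions, and no test was made on 5 windows.

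In each of the 5 promoters a match lay close to the point of highest signal. Measured along the gene from the control summit to the middle of the 7-base word, it stood at -35 bp in Nsfl1c, 43 bp in Adprhl2, -16 bp in Vps36 and -20 bp in Nipsnap2. In Rapgef1 the 3 matches stood at -2, 45 and 85 bp. Over the 389 promoter windows that held both a summit and a match, the median distance of the nearest match was 20 bp, and 85.6% were within 50 bp. From the summit of the library labelled knockout the distances were -25 bp in Nsfl1c, 16 bp in Adprhl2, -35 bp in Vps36, -60 bp in Nipsnap2 and 5 bp for the nearest match in Rapgef1. The nearest match pointed along the gene in 4 of the 5 promoters, all but Nipsnap2, and in 66.6% of the 389 windows. For Rfx7 and Pkn3 the tabled start lay at some distance from the region, with the summit at -1821 and -1079 bp relative to it, and the sequence under those 2 summits was not used here.

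**Figure D1:**
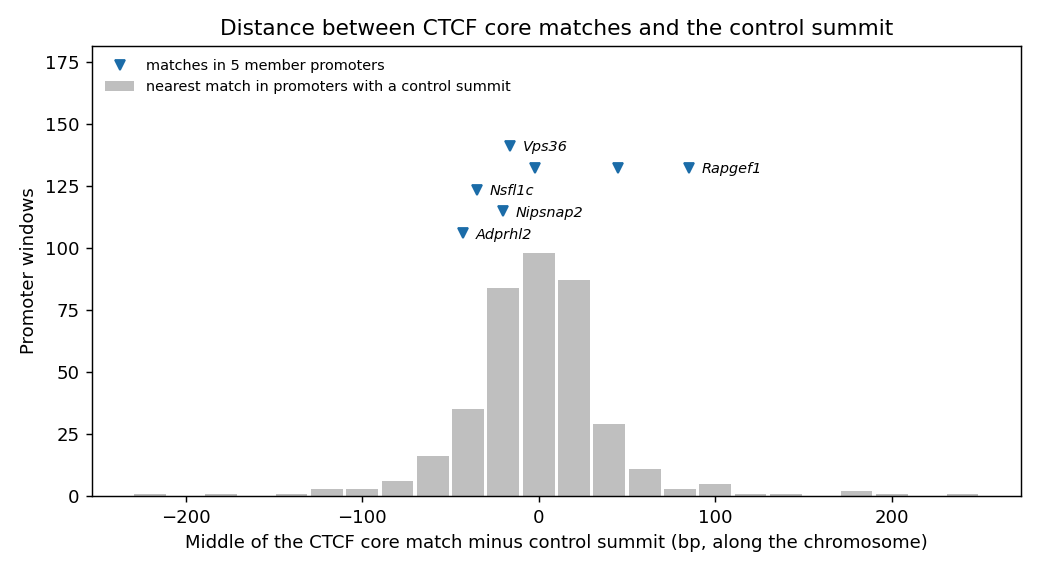
Distance from the control summit to the middle of the nearest CTCF core match (bp along the chromosome, x axis) in promoter windows that hold both (grey bars of 20 bp, number of windows on the y axis), with the matches of 5 member promoters as triangles. Each member has a match within 50 bp of the summit, and Rapgef1 has 2 more beyond 40 bp.

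The control list held 20043 regions and the list labelled knockout 16128. A region of the control is called kept where a region of the other list overlaps it by at least 1 bp, which held for 69.0% of the control regions. Fold enrichment is the authors' value for a region over its local background and was ranked only within its own list. Read depth is not listed, but the number of reads stacked at each summit (the pileup) and the local background could be solved from the fold enrichment and the p-value, as described under the processing. The lowest local background was 1.01 reads (control) and 0.851 (labelled knockout), a ratio of 0.846, which mixes depth with fragment length.

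The 8 strong regions held ranks 1 to 6, 8 and 10 of the control list, with fold enrichments from 41.4 beside Kdm3b down to 30.2 beside Nipsnap2. Rank 10 was the last one inside the choice, and the region at rank 11, just outside it, had 29.7. In the list labelled knockout the same 8 places held ranks 2 (Kdm3b), 5 (Vps36), 18 (Nipsnap2), 21 (Rfx7), 25 (Adprhl2), 52 (Pkn3), 79 (Nsfl1c) and 123 (Rapgef1). All 8 were thus within the first 0.763% of that list, and 2 of them, Kdm3b and Vps36, were among its 10 strongest. These ranks depend on the measure. Ordered by −log10 p, the 8 control regions ranked 3 (Kdm3b), 2 (Nsfl1c), 10 (Adprhl2), 13 (Rfx7), 16 (Vps36), 19 (Pkn3), 22 (Rapgef1) and 21 (Nipsnap2), so that 3 of 8 were among the first 10. In the other list only Kdm3b, at rank 7, was then among the first 10, and Vps36 stood at 19. By fold enrichment the order within the 8 was not the same in both libraries: Nsfl1c was second in the control and seventh of the 8 in the other library, while Nipsnap2 was last of the 8 in the control and stood behind only Kdm3b and Vps36 in the other library.

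**Figure D2:**
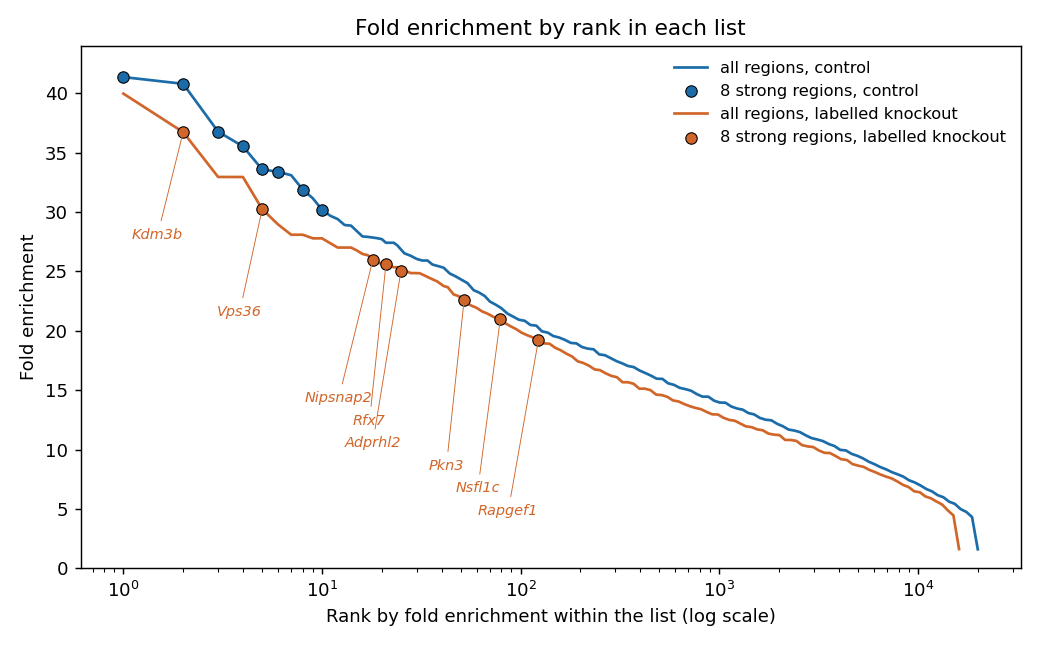
Fold enrichment (y axis) against rank within each list (x axis, log scale) for all control regions (blue line) and all regions labelled knockout (orange line), with the 8 strong regions as points and named at their rank in the second list. The points span ranks 1 to 10 of the control list and 2 to 123 of the other.

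In reads, the control pileup was 85 at Nsfl1c, 82 at Kdm3b, 74 at Adprhl2, 72 at Rfx7, 69 at Nipsnap2, 68 at Vps36, 66 at Pkn3 and 63 at Rapgef1. The exact Poisson intervals of these 8 numbers overlap one another, from 67.9 to 105 at Nsfl1c to 48.4 to 80.6 at Rapgef1, so that the order within the control is not fixed by the read counts. The library labelled knockout had 67 at Kdm3b, 65 at Rfx7, 57 at Adprhl2, 55 at Vps36, 53 at Nsfl1c, 47 at Nipsnap2, 42 at Pkn3 and 39 at Rapgef1. Each of the 8 places thus had fewer reads in this library, and the choice by control strength favours places where the control count is high. The local background was higher in the list labelled knockout at Nsfl1c (1.58 against 1.11 reads), Adprhl2 (1.31 against 1.04) and Rfx7 (1.58 against 1.05). It was higher by less at Rapgef1 and lower at the other 4. The region names point to an input as the source of this background. These small values have no interval here, and nothing is read from their differences.

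The ratio of the second count to the first ran from 0.619 at Rapgef1 (exact 95% interval 0.404 to 0.937) to 0.903 at Rfx7 (0.635 to 1.28). All 8 intervals include 0.846, the ratio of the lowest backgrounds, and all 8 overlap each other. Summed over the 8 regions the counts were 579 and 425, a ratio of 0.734 (0.646 to 0.833), which lies below 0.846. The median ratio was 0.730 over the 1985 kept regions of the strongest 10% of the control list, with 95% of them between 0.416 and 1.15. The summed ratio of the 8 regions was thus close to the median of the strong regions they were taken from, and nothing particular to the 8 is read from it.

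**Figure D3:**
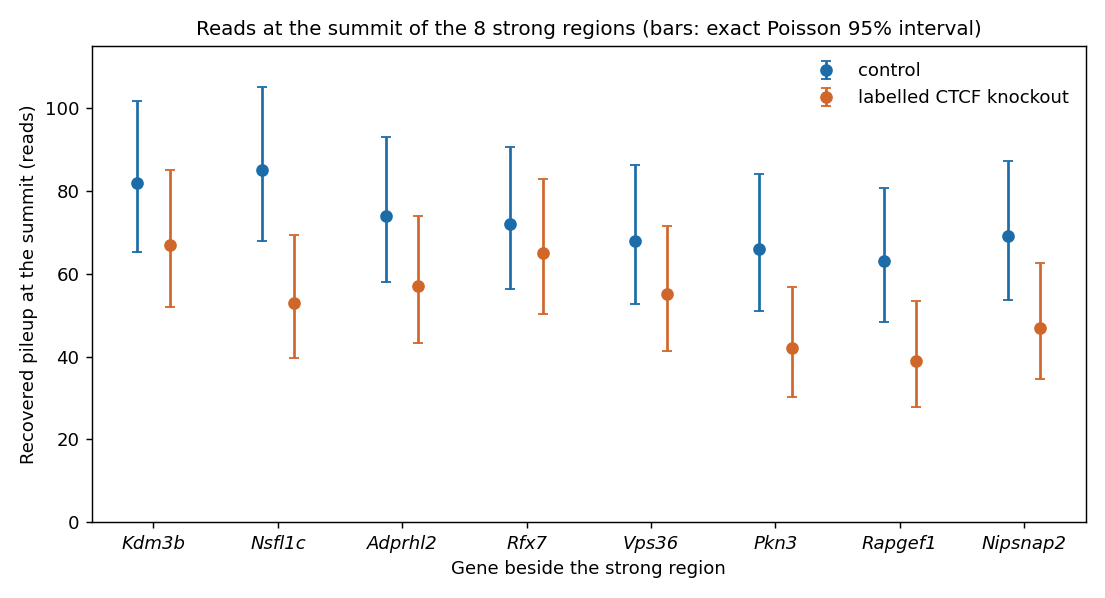
Reads stacked at the summit (y axis) of the 8 strong regions in the control library (blue) and the library labelled CTCF knockout (orange), each point 1 library with its exact Poisson 95% interval. Control values lie between 63 and 85 reads and the others between 39 and 67.

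The place of the summit was no part of the choice and was nearly the same in both libraries. The 2 summits were 7 bp apart at Rfx7 and at Rapgef1, 8 bp at Kdm3b, 10 bp at Nsfl1c, 12 bp at Pkn3, 19 bp at Vps36, 27 bp at Adprhl2 and 40 bp at Nipsnap2. Their median of 11 bp compares with 26 bp over all 13832 kept regions and with 19 bp over those of the strongest 10%. Over all kept regions 69.6% moved by no more than 40 bp. Summits of stronger regions rest on more reads, and whether this sets the difference was not tested.

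**Figure D4:**
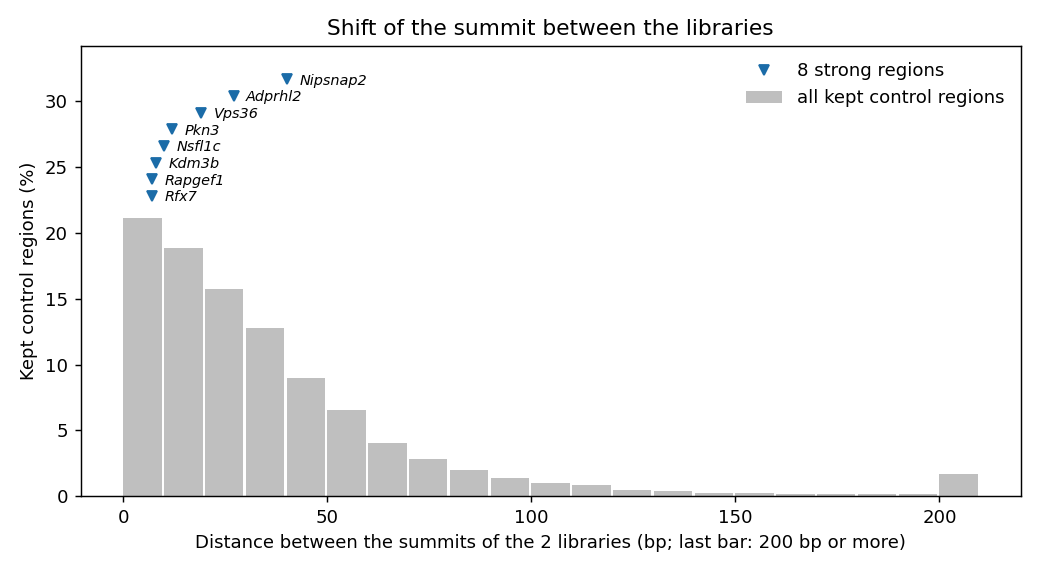
Distance between the summits of the 2 libraries (bp, x axis) over all kept control regions (grey bars, percent of 13832 regions on the y axis), with the 8 strong regions as triangles. The 8 lie between 7 and 40 bp.

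The strong regions lay at gene ends. For 7 of the 8 the summit was within 200 bp of an end of the gene span, at 17 bp (Nsfl1c), 30 bp (Nipsnap2), 54 bp (Vps36), 71 bp (Pkn3 and Rapgef1), 91 bp (Adprhl2) and 124 bp (Kdm3b), and only Rfx7 was farther, at 1750 bp. Over the whole control list 6.76% of summits were that close to an end of any protein-coding gene, and 13.6% of the strongest 10%. Where the promoter table gave the strand, the end concerned was on the 5′ side of the gene. For Pkn3 the 2 annotations differ: the summit was 71 bp from the end of the span but at -1079 bp relative to the start in the promoter table. The genes were taken because the regions lie beside them, so closeness follows in part from the choice, and nothing is read from the difference to these shares. The regions were 345 bp (Nsfl1c) to 972 bp (Kdm3b) wide, against a median of 228 bp over the control list and 353 bp over its strongest 10%. The regions at Nipsnap2 (704 bp) and Vps36 (646 bp) were the next widest after Kdm3b.

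Within 100 kb of the 8 gene spans there were 39 control regions, 8 strong ones and 31 neighbours. Of the neighbours 24 were kept (77.4%, Wilson 95% interval 60.2 to 88.6), an interval that includes the 69.0% of the whole control list. Neighbours were stronger than the list as a whole, with a median control fold enrichment of 8.14 against 6.98, and the kept shares of their fold enrichment classes (10 classes of the control list by rank) give 71.3% for a set of this strength. The 7 neighbours that were not kept had fold enrichments from 3.45 to 6.98, and the 17 neighbours at 7 or above, a limit set after these values were seen, were all kept, where 90.5% of all control regions at 7 or above were. In the other direction 35 regions labelled knockout lay near the 8 genes, of which 31 (88.6%, interval 74.0 to 95.5) overlapped a control region, against 85.8% of that whole list. For 23 of the 24 kept neighbours, all but the one that shares its partner with the strong region of Pkn3, the summed counts were 450 control reads and 314 in the other library, a ratio of 0.698 (0.602 to 0.808). Over all 13832 kept control regions, of every strength and with shared partners not left out, the ratio of summed reads was 0.877. The median ratio was 0.771 over those with at least 20 control reads and 0.730 over the kept regions of the strongest 10%. Both medians lie within the interval of the neighbours, and nothing particular to the neighbours is read from these ratios.

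The number of neighbours differed widely. Pkn3 and Rapgef1 had 8 control regions each, Kdm3b 7, Rfx7 6, Adprhl2 5, Vps36 and Nipsnap2 2 each, and Nsfl1c had the strong region alone. The median over protein-coding genes was 3, with 14.7% of genes at 8 or more and 30.4% at 1 or none. The strong regions were chosen for the highest control fold enrichment, so that each exceeds its neighbours by the choice. The next strongest region was 18.9 at Rapgef1, between 11.2 and 13.04 at Kdm3b, Adprhl2, Rfx7 and Pkn3, 8.47 at Vps36 and 6.63 at Nipsnap2. The strong region exceeded the next one by 1.68 times at Rapgef1 and by 4.55 times at Nipsnap2, the smallest and largest of these ratios within the control list.

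**Figure D5:**
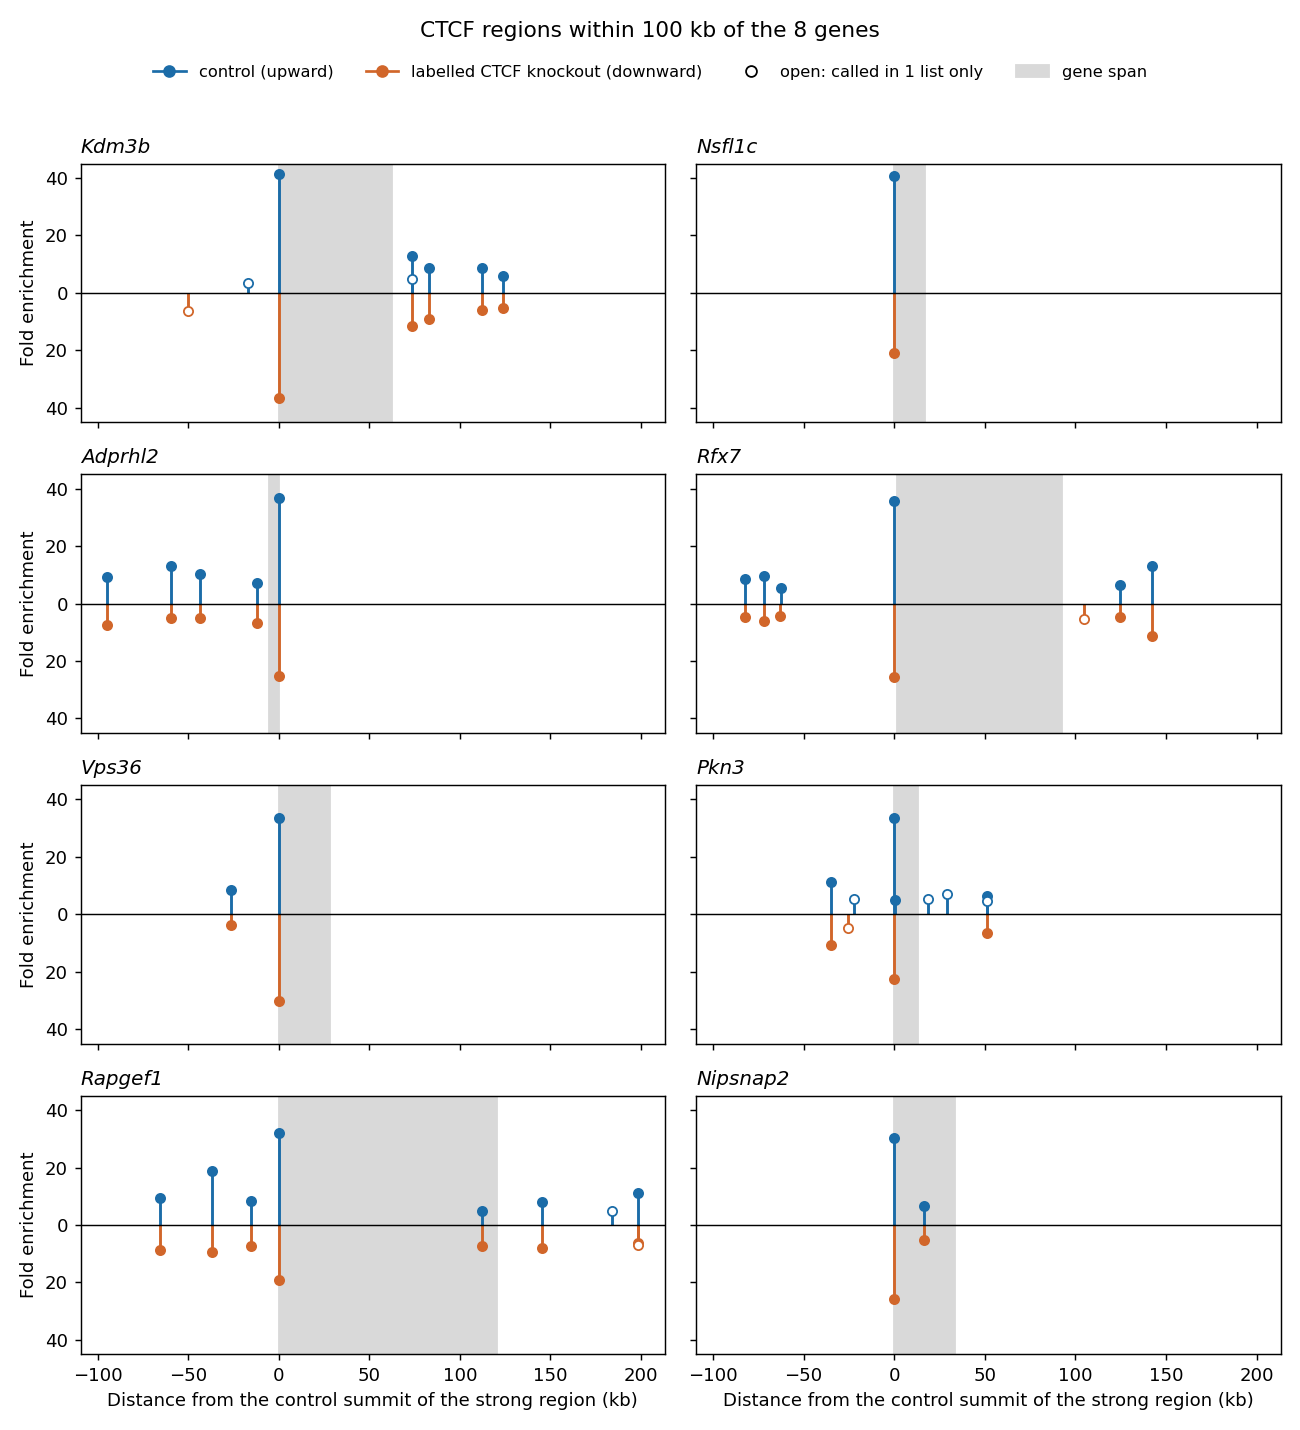
CTCF regions within 100 kb of each of the 8 gene spans (grey), plotted by distance from the control summit of the strong region (kb, x axis) and fold enrichment (y axis), upward for the control list and downward for the list labelled CTCF knockout. Filled points are called in both lists and open points in 1 list. Nsfl1c has 1 region in each list and Rapgef1 has 8 in each.

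Rapgef1 (chromosome 2, 29619720 to 29740364, mm10) had its strong region at 29619307 to 29619762, where the authors' fold enrichment was 31.9 (control) and 19.2 (labelled knockout). The next gene below was Med27, a Mediator subunit gene, 94.9 kb away, and the one above was Gm13420, at 121 kb. The strongest neighbour was a region at 29582272 to 29582729, 37.1 kb before the gene, with 18.9 (37 reads) in the control list and 9.32 (23 reads) in the other list. In all, 6 of the 7 neighbours were kept, and together these held 136 control reads and 101 reads in the second library. A region inside Rapgef1, 112 kb from the strong one, had 12 and 14 reads. Among the 23 kept neighbours with a partner of their own, this region and the Tex9 region near Rfx7 had more reads in the library labelled knockout. The neighbour called in the control alone lay within Slc27a4, a fatty acid transport protein gene, at 4.92 (13 reads). Just beyond the same gene a region called only in the library labelled knockout (29818116 to 29818287) had 7.09 (14 reads), 0.703 kb from that gene. It lay directly past a kept control region at 29817696 to 29818082. That kept region had 11.2 (25 reads) in the control list and 6.21 (15 reads) in the other list. Whether the 2 calls of the second library belong to 1 site was not tested, and the 14 reads are not among the 101.

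Pkn3 (chromosome 2, 30077548 to 30091023) had its strong region at 30077433 to 30077952 (33.4 and 22.6), across the lower-coordinate end of the gene span. The summit lay inside the span, 71 bp from that end. Pkn3 had the most neighbours that were not kept, 4 of 7. The strongest of these, at 30106447 to 30106700, had 6.98 (13 reads) and lay within Zer1, which encodes a substrate receptor of a ubiquitin ligase. The others had 4.49 to 5.48, and the weakest, at 30128747 to 30128884, lay beside a kept region at 30128956 to 30129139. Over the whole control list 32.5% to 63.7% of regions in the fold enrichment classes of these 4 were kept, and nothing particular to Pkn3 is read from the count. The strongest kept neighbour lay within Wdr34, a dynein chain gene, with 11.2 (25 reads) in the control list and 10.8 (19 reads) in the other list. A second control region only 0.611 kb from the strong summit (4.83, 14 reads) counts as kept because a single region of the other list, 880 bp wide, spans both. Set, a histone chaperone gene, lay 5.04 kb below the strong summit, and Zdhhc12, a palmitoyltransferase gene, 13.3 kb above it. A region 3.30 kb from Wdr34 (4.86, 8 reads) was called only in the library labelled knockout.

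Nsfl1c (chromosome 2, 151494182 to 151511310) stood alone. Its strong region (151494022 to 151494366, 40.8 and 21.0) was the only one within 100 kb in either list, and the next control summits were 493 kb below and 254 kb above. Of all distances between neighbouring control summits 26.4% exceeded 100 kb, and their median was 38.6 kb. The nearest protein-coding genes were 4921509C19Rik, 17.9 kb below, and Fkbp1a, 48.3 kb above. Fkbp1a encodes FKBP12, a partner of the ryanodine receptor, the calcium release channel of heart muscle. Local background at this region was 1.11 reads (control) and 1.58 (labelled knockout), above the lowest of each. Because it was higher in the second list than in the control list, the 2 fold enrichments differ by more than the counts of 85 and 53 reads do. These 2 background values have no interval here.

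Vps36 (chromosome 8, 22192833 to 22220953) had a strong region of 646 bp over its start (22192655 to 22193300, 33.6 and 30.3). Its single neighbour lay within Nek3, a kinase gene, 26.3 kb away, with 8.47 (16 reads) in the control list and 3.88 (9 reads) in the other list, and it was kept. Above the strong summit no control region followed for 184 kb. Ckap2, a gene of the mitotic spindle, lay 6.96 kb below, and Thsd1 28.2 kb above.

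Adprhl2 (chromosome 4, 126316351 to 126321703) lies on the minus strand, and its strong region (126321500 to 126321980, 36.8 and 25.1) covers its start. Tekt2, a flagellar tektin gene, lay only 0.327 kb from the summit, and Col8a2, a collagen gene, lay 7.46 kb away on the other side. All 4 neighbours were kept. They had 25, 27, 20 and 19 control reads, against 13, 11, 8 and 13 in the library labelled knockout, 91 against 45 in sum, a ratio of 0.495 (exact interval 0.338 to 0.714), where the strong region had 0.770 (0.536 to 1.10). The 2 intervals overlap, and the ratio of the lowest backgrounds, 0.846, lies above the first of them. The ratio over all 23 kept neighbours with a partner of their own, which include these 4, was 0.698 and lies within that first interval. The median of 0.771 over kept regions with at least 20 control reads lies above it. The ratio of 0.495 was the lowest over the 7 genes with neighbours, which ran up to 0.846 at Nipsnap2, and it was singled out after the values were seen.

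The strongest neighbour near Adprhl2 sat in the promoter window of Trappc3, a subunit gene of a vesicle tethering complex, and was the only one of the 31 neighbours with its summit in a tabled promoter window. It is shown because it carries a match of the same kind as the strong regions with 27 reads in place of 74. The match, CCGCTAGGTGGC, lies against the gene, so that its reverse complement is capitalised, and 6 bp from the control summit.
Trappc3 (chr4:126262176-126262230, plus strand): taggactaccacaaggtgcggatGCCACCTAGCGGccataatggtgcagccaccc

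Nipsnap2 (chromosome 5, 129725016 to 129758327) had 2 regions in each list. The strong one (129724576 to 129725279, 30.2 and 25.9) covered the start, and its summit moved by 40 bp, from before the lower-coordinate end of the gene span to within it. Both summits lay before the start given in the promoter table, at -89 bp (control) and -49 bp (labelled knockout). The neighbour lay inside the gene, 16.2 kb on, with 6.63 (13 reads) and 5.19 (11 reads). Mrps17, a gene of the mitochondrial ribosome, lay 6.27 kb below, and Psph, a serine synthesis gene, 40.6 kb above. Both Nipsnap2 and Mrps17 encode mitochondrial proteins.

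Rfx7 (chromosome 9, 72532169 to 72622949) was the exception in position. Its strong region (72530241 to 72530603, 35.5 and 25.6) lay 1.75 kb before the gene, within the long non-coding RNA gene 4930509E16Rik and 1439 bp from the upper end of that gene. All 5 neighbours were kept. The strongest lay within Nedd4, a ubiquitin ligase gene, with 12.96 (25 reads) in the control list and 11.3 (20 reads) in the other list. The other 4, at Mns1, Tex9 and near Nedd4, had 10 to 18 control reads and 8 to 11 in the other library. Tex9 lay 19.5 kb below the strong summit and Nedd4 132 kb above it. A region 12.3 kb beyond Rfx7 was called only in the library labelled knockout (5.40, 9 reads).

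Kdm3b (chromosome 18, 34777008 to 34839370) had the region with the highest fold enrichment of the control list (34776557 to 34777528), at rank 3 by −log10 p. It was 972 bp wide there and 1005 bp wide in the second library, with fold enrichments of 41.4 and 36.7. It lay between Fam53c, whose upper end was 3.12 kb from the summit, and Kdm3b itself, and the next gene above was Reep2, 63.7 kb away. Of 6 neighbours 4 were kept. The strongest, 2.84 kb from Reep2, a gene of the endoplasmic reticulum, had 12.96 (25 reads) in the control list and 11.6 (21 reads) in the other list. A kept region 1.20 kb from Egr1, an early response transcription factor gene, had 8.52 (21 reads) and 8.95 (16 reads), and 2 kept regions near Etf1, a translation termination factor gene, had 8.63 and 5.78 in the control. The 2 neighbours that were not kept were weak, at 4.99 (9 reads) beside the Reep2 region and 3.45 (7 reads) within Fam53c. A region 6.07 kb from Cdc25c, a cell cycle phosphatase gene, was called only in the library labelled knockout (6.48, 11 reads).

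Relatives of the 8 genes by family or complex were described in the same way. All 52 relatives were matched in the gene table, and 36 of them had a control region within 10 kb, where 50.1% of all protein-coding genes had one. The window includes the gene span and so grows with gene length, which was not matched, and nothing is read from this difference. These relatives held 63 control regions with a median fold enrichment of 7.03, close to the 6.98 of the whole list. Of them 42 were kept (66.7%, Wilson interval 54.4 to 77.1), an interval that includes the 69.0% of the whole control list. That no relative reached the strength chosen here was nearly fixed by the choice, since the 8 genes already hold 8 of the 10 strongest control regions. The strongest region of a relative lay 9.77 kb from Ubxn2a, another p97 cofactor gene, with 15.6 at rank 547 of the control list. A region near Rapgef5, another exchange factor gene for Rap proteins, had 13.97 and was kept, with 11.9 in the list labelled knockout.

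In 5 other families the strongest regions were at Macrod1, which also acts on ADP-ribose (12.4), Vps37c, an ESCRT-I subunit gene (12.1), Hr, which encodes a demethylase of the same fold as Kdm3b (11.2), Rfx2 (9.65) and Nipsnap1 (5.48). All of these but the Nipsnap1 region were kept. Neither of the other ESCRT-II genes, Snf8 and Vps25, had a control region within 10 kb, and neither had Kdm3a, a demethylase gene of the same family as Kdm3b. Rapgef2 to Rapgef6, Rap1a, Rap1b, Crk and Crkl all had at least 1. Of their 21 regions 15 were kept (71.4%), close to the 69.0% of the whole control list. By family the kept counts ran from 0 of 1 near the relatives of Nipsnap2 to 8 of 9 near those of Nsfl1c.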

How the data were processed

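CTCF ChIP-seq regions of 2 libraries were analysed; the 2 input libraries are not analysed here. The submitters' processing notes list MACS2, SAMtools 0.1.19, Bowtie2 2.2.6 and the mm10 build. Calling thresholds and duplicate handling are not stated in any source used here. In the deposited lists, whose region names point to an input background, each region has a fold enrichment (ratio), a −log10 p and −log10 q, a score (10 times the −log10 q, whole part) and a summit offset. Regions within 100 kb of a gene span by their summit were taken, with gene positions from a RefSeq table of GRCm38.p6 (mm10). Pileup n and background b were solved from fold = (n + 1) / (b + 1) and the upper Poisson tail, which fitted every −log10 p within 0.001. Shares have Wilson 95% intervals, and pileup ratios exact binomial ones. The recovery, overlap and word search were tested on simulated data. Each gene was described by all its regions, and named beside it were the nearest genes on both sides, the strongest kept, control-only and knockout-only neighbours and the strongest relative, of which 1 is not reported here. Members, gene lists and alternatives were chosen with earlier results of these data known. Tools were scipy 1.17.1, numpy 2.4.6, matplotlib 3.10.9, pandas 2.3.3 and Python 3.11.15.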

Additional observations from a re-analysis of the deposited data

How the results depend on the processing

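No paired analysis was possible because only 1 library was made per genotype. The share of control regions kept near the 8 genes was 82.1% (32 of 39) and ran from 71.8% to 82.8% with windows of 50 and 200 kb, a −log10 q or fold enrichment of at least 5, reciprocal overlap of 50% and summits within 100 bp. The whole control list had 69.0%, and 59.8% to 71.6% under these settings. The 39 include the 8 regions chosen for being kept, so this share is in part set by the choice. Ordering by −log10 p cannot move a kept share, but left 3 of the 8 regions among the first 10 of the control list. Without the strong regions the kept share ran from 64.5% to 80.4%, against 77.4%, and under both stricter thresholds it was below that of the whole control list (65.2% against 71.6% and 65.4% against 71.3%). The number of regions near the genes rose with the 200 kb window, by construction, to 64 in the control and 59 in the other list, against 39 and 35. Near relatives the kept share rose from 66.7% to 83.7% at a −log10 q of 5 or more and to 81.6% at a fold enrichment of 5 or more; the cause was not tested. The other 32 values stayed within their counting interval or, for numbers of regions, between 25 and 34; 3 of the 32 are the ordering by −log10 p, which cannot move them. With 31 neighbours and pileups of 7 to 37 reads, only large differences in the kept share would be visible.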
